A study of Mus musculus with 61 samples.

Results

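Salivary glands of 16-week-old NOD mice were profiled on 12 of the 61 arrays of the series. The 4 arrays titled for LTBR-Ig at week 16 were set against the 8 arrays titled for MOPC-21 (n = 4) or for untreated controls (n = 4), pooled as one control group. The fits and comparisons also draw on salivary glands of weeks 8, 12 and 14 and on lacrimal glands of the series. Glands of weeks 8 and 14 were untreated, and those of week 12 were from LTBR-Ig, MOPC-21 and untreated mice. NOD mice are an inbred strain in which lymphocytes spontaneously invade exocrine glands and pancreatic islets, and the series title names males. LTBR-Ig is a fusion of the mouse lymphotoxin-beta receptor with a mouse IgG1 Fc, and MOPC-21 is a mouse monoclonal IgG1 that served as the control protein. Both were given by weekly intraperitoneal injection from week 8, and untreated mice received neither. The RNA came from submandibular, salivary and parotid glands frozen together after the cervical lymph nodes had been dissected away, so cell types and gland types were not separated. It was hybridized to Affymetrix whole-genome mouse arrays, on which each transcript is read by 1 or more probe sets.

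The lymphotoxin-beta receptor is a member of the tumor necrosis factor receptor family on stromal, endothelial and myeloid cells. Its ligands, the lymphotoxin heterotrimer and LIGHT, are made mainly by lymphocytes, and its signal maintains lymph node structure, high endothelial venules and chemokines that attract B cells. LTBR-Ig binds these ligands and blocks the signal. Salivary glands normally harbor plasma cells that secrete IgA joined by the J chain, which the gland epithelium carries into saliva.

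Values are log2 intensities after GCRMA. A value of 4 was taken as the floor of detection, and the 19118 probe sets above it on at least 2 of the 12 arrays were tested. On each array 39.4 to 40.2% of all probe sets lay above the floor, and the highest value was 16.38. Arrays of the same group correlated at r = 0.994 to 0.996 across probe sets. On the first principal component of the 12 arrays, which held 23.3% of the variance, the LTBR-Ig arrays lay at 14.4 to 21.0 and the controls at -18.7 to -4.5. Transcripts that define submandibular gland averaged 15.02 to 15.17 on LTBR-Ig arrays and 14.89 to 15.16 on control arrays, and those of sublingual gland averaged 14.28 to 14.45 and 14.16 to 14.44. Of the 7 lymph node markers matched, 6 lay below the floor on all 12 arrays. Parotid markers averaged 7.07 to 7.64 on LTBR-Ig arrays, 7.31 to 8.07 on MOPC-21 arrays and 7.21 to 12.14 on untreated arrays. The parotid range in untreated mice was set by replicate 4, in which Amy1, salivary amylase, stood at 14.19. The labels do not say that replicate arrays came from separate mice, so p-values measure the spread between samples and not surely between mice. In the salivary comparisons that spread is taken over all 30 salivary arrays, not the 12 of week 16 alone, unless another fit is named. Differences between glands use the spread over the arrays of both glands.

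After 8 weeks of LTBR-Ig, few salivary transcripts passed the test against controls in the fit over all 30 salivary arrays. Immunoglobulin and J chain probe sets were the largest annotated group among those called lower. A probe set was called where it differed at least 2-fold and its limma p, adjusted by Benjamini-Hochberg, was under 0.05. By this rule 21 probe sets were lower, 0.110% of those tested, and 1 was higher, 0.00523%. Of the 21 lower, 9 are annotated to immunoglobulin genes or the J chain, 5 to a single other gene each and 7 have no gene in the annotation. The 5 other genes were Slpi, Plac8, Mzb1, Rtp4 and Oasl2, and the higher probe set was that of Chac1. At any fold, 41 probe sets passed the adjusted p, 30 lower and 11 higher.

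**Figure D1:**
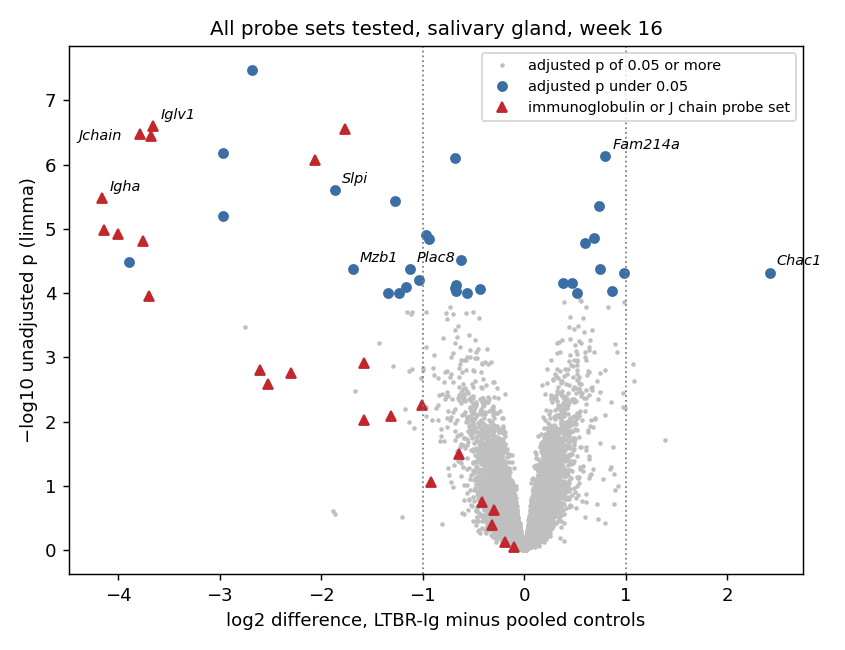
Each point is 1 of the 19118 probe sets tested, with the log2 difference between LTBR-Ig and pooled controls on the horizontal axis and −log10 of the unadjusted limma p on the vertical axis. Blue points passed an adjusted p of 0.05, red triangles mark immunoglobulin or J chain probe sets whether or not they passed, and dotted lines mark a fold of 2. The points farthest to the left are Igha probe sets, and Chac1 stands alone on the right.

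The largest differences were in transcripts of IgA. Igha, the constant region of the IgA heavy chain (chromosome 12), stood at 9.36, 9.06, 9.57 and 9.70 on the 4 LTBR-Ig arrays, and at 12.86 to 13.82 with a median of 13.47 on the 8 control arrays. The groups were far apart, and MOPC-21 and untreated arrays overlapped each other. The means were 9.42 ± 0.28 (SD, n = 4) in LTBR-Ig mice and 13.43 ± 0.33 (SD, n = 8) in controls. The log2 difference was -4.004 (SE 0.76, 95% confidence interval -5.55 to -2.46), which is 16.0-fold lower (limma adjusted p = 0.0141). All 3 Igha probe sets passed, with log2 differences of -4.004, -4.14 and -4.16. With any 1 LTBR-Ig array left out, the adjusted p of the first was 0.0546 to 0.0735. That spread includes the untreated glands of week 8, where Igha ran between 3.68 and 11.67, and with only the 12 arrays of week 16 in the fit the adjusted p was 1.41e-10.

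Jchain, which links IgA into dimers and IgM into pentamers (chromosome 5), read 5.65, 6.24, 5.92 and 6.02 on LTBR-Ig arrays. It read 8.93 to 10.46 on control arrays, with a median of 9.76. No LTBR-Ig array came near a control array. Jchain was 13.8-fold lower, a log2 difference of -3.79 (SE 0.57, 95% confidence interval -4.96 to -2.62, limma adjusted p = 0.00136). It passed against MOPC-21 alone (-3.57, adjusted p = 0.0427) and against untreated mice alone (-4.01, adjusted p = 0.0086).

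Light chain transcripts were also lower in several probe sets, though not in all. Igkv8-30, a kappa variable segment (chromosome 6), read 9.02, 8.75, 9.06 and 9.31 on LTBR-Ig arrays and 12.06 to 13.28 on control arrays, with a median of 12.77, a log2 difference of -3.75 (SE 0.72, limma adjusted p = 0.0149). With any 1 LTBR-Ig array left out its adjusted p was 0.0578 to 0.0756. Iglv1, a lambda variable segment (chromosome 16), read 2.90, 2.93, 2.71 and 2.95 on LTBR-Ig arrays, all below the floor, and 5.38 to 7.52 on control arrays, with a median of 6.68. Set against the floor, Iglv1 was at least 5.76-fold lower in LTBR-Ig mice (limma adjusted p = 0.00136). Igkv9-120, another kappa segment, was likewise below the floor on every LTBR-Ig array, at 2.55 to 3.43, and stood at 5.80 to 7.75 on control arrays. It was at least 5.82-fold lower (limma adjusted p = 0.00136). A second Iglv1 probe set differed by -0.64 and did not pass (limma adjusted p = 0.629). For Igk, 1 probe set was called, at a log2 difference of -2.06 and below the floor on LTBR-Ig arrays (limma adjusted p = 0.00184). The Igk probe set with the highest mean differed by -1.01 and did not pass. Variable segments are close copies of one another, so a probe set may also bind related segments.

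Of 57 probe sets annotated to immunoglobulin genes or the J chain, 33 were below the floor rule and 24 were tested. All 24 had a negative difference, 9 were called lower and none was called higher. Over all probe sets tested, 0.110% were called lower. In 13 of the 24, every LTBR-Ig array lay below every control array, as in 1.68% of all probe sets tested. Counting just the 13 that were above the floor on at least 2 LTBR-Ig arrays, which excludes those that passed through the controls alone, 5 were called lower and 8 did not overlap. IgM showed no such difference. Ighm, its heavy chain constant region, read 6.31, 7.18, 4.70 and 6.52 on LTBR-Ig arrays and 4.85 to 8.39 on control arrays, with a median of 6.10. Its arrays overlapped widely, and the log2 difference of -0.10 had a 95% confidence interval of -1.83 to 1.62. None of the 7 Ighm probe sets tested was called, with log2 differences of -1.58 to -0.10.

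**Figure D2:**
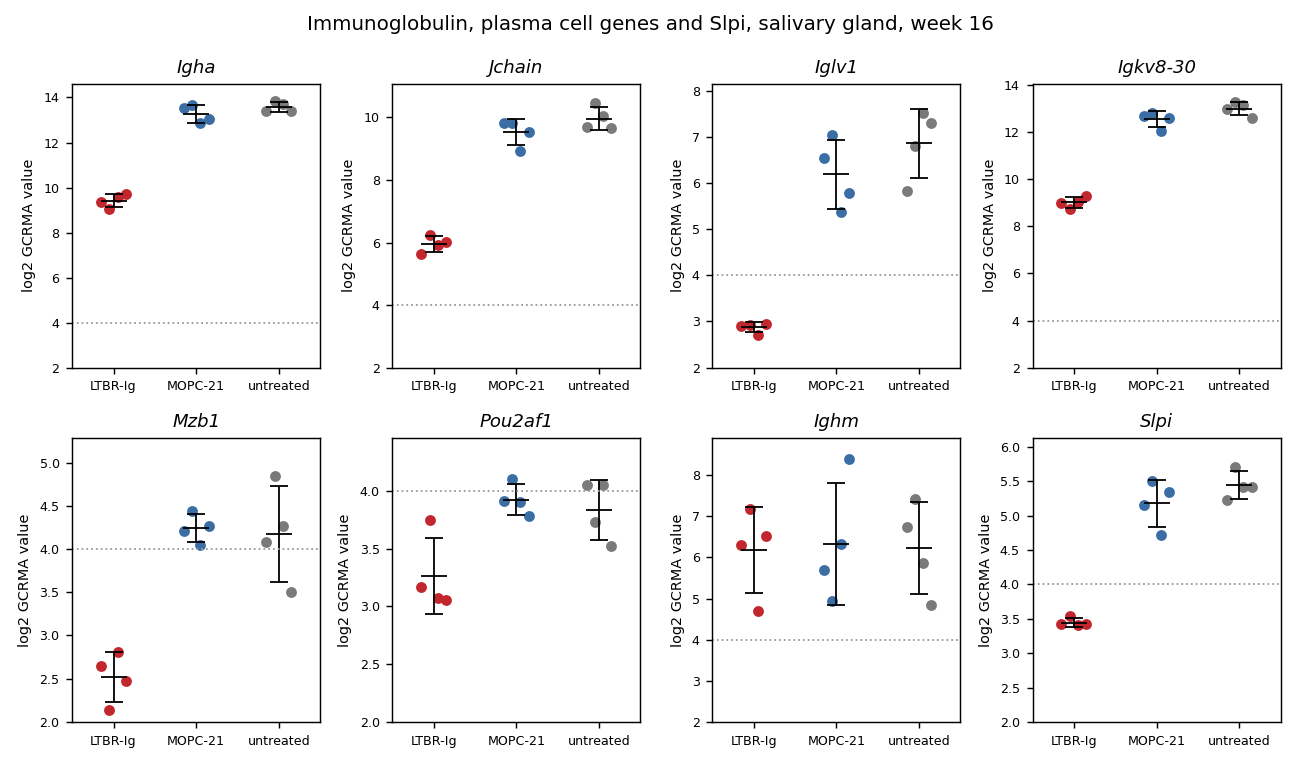
Log2 GCRMA values of Igha, Jchain, Iglv1, Igkv8-30, Mzb1, Pou2af1, Ighm and Slpi on each salivary array of week 16, in LTBR-Ig (red), MOPC-21 (blue) and untreated (gray) mice, with mean and SD (n = 4 each) and a dotted line at the floor of 4. LTBR-Ig arrays lie below both control groups in every panel except those of Pou2af1, where 1 array overlaps, and Ighm, where the groups mix.

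Genes that plasma cells use to make antibody split into those that differed and those that did not. Mzb1, an endoplasmic reticulum protein that helps to assemble immunoglobulin (chromosome 18), read 2.65, 2.14, 2.81 and 2.47 on LTBR-Ig arrays and 3.51 to 4.85 on control arrays, with a median of 4.24. All LTBR-Ig values were below every control value, although 1 control array was also under the floor. Against the floor the decrease was at least 1.16-fold, and the measured log2 difference was -1.69 (SE 0.35, limma adjusted p = 0.0316). Pou2af1, a B-lineage coactivator of immunoglobulin promoters, stood at 3.05 to 3.75 on LTBR-Ig arrays and 3.52 to 4.10 on control arrays, a log2 difference of -0.62 (limma adjusted p = 0.0261) close to the floor. It did not pass in 6 of 22 alternatives (adjusted p up to 0.173). Xbp1 and Sdc1 are used by plasma cells and also by secretory or epithelial cells. Their log2 differences were 0.18 (adjusted p = 0.944) and -0.07 (adjusted p = 1). In the list of plasma cell genes, 6 of the 10 matched members were tested, 2 were called lower, as were 0.103% of all genes, and the median difference was -0.09, against 0.01 over all 9662 genes tested. B cell genes were mostly unmeasurable, since 17 of the 20 matched members, Ms4a1 (CD20) and Cr2 among them, were not tested because they stayed at the floor. In these whole glands, fewer cells of a type and less RNA per cell cannot be told apart.

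The IgA transcripts were low in most young glands and higher in older control glands, with a log2 difference of 7.24 for Igha between weeks 16 and 8 in untreated mice (limma adjusted p = 4.85e-07). In LTBR-Ig salivary glands Igha averaged 11.17 at week 12 (n = 2) and 9.42 at week 16. MOPC-21 glands held 12.63 at week 12 and 13.27 at week 16. Untreated glands held 6.34 ± 3.61 at week 8 (SD, n = 4), 12.87 at week 12, 12.76 at week 14 and 13.58 at week 16. The log2 difference from pooled controls was thus -1.58 at week 12 (adjusted p = 0.721) and -4.004 at week 16, and the difference between these effects, -2.42, did not pass (adjusted p = 0.857). Jchain ran the same way. It averaged 7.03 (n = 2) and 5.96 in LTBR-Ig glands of weeks 12 and 16, and 4.38 ± 2.54, 8.91, 9.0 and 9.97 in untreated glands of weeks 8, 12, 14 and 16.

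IgA transcripts differed less from controls in the lacrimal gland of week 16. There Igha stood at 14.56 ± 0.25 after LTBR-Ig, 15.14 after MOPC-21 and 15.27 in untreated mice, a log2 difference from pooled controls of -0.64 (adjusted p = 0.436). These lacrimal values lie near the highest array value of 16.38, where differences can be compressed. That limits the comparison of Igha between glands. The salivary difference was larger by -3.37 (limma adjusted p = 0.00799 for the difference between glands). The same test gave -2.63 for Jchain (adjusted p = 0.0121) and -3.06 for Igkv8-30 (adjusted p = 0.0128). Not all antibody genes differed this way. Lacrimal log2 differences were -1.81 for Mzb1 (limma adjusted p = 0.000101), -1.66 for Igkv9-120 (0.00819) and -1.73 for Pou2af1 (3.37e-06). The difference between glands was 0.12 for Mzb1 (0.908) and -2.01 for Igkv9-120 (0.0535), and neither passed. For Pou2af1 the lacrimal difference was the more negative. All these genes lay below the floor on every salivary LTBR-Ig array. Over all probe sets, 977 of 21265 differed between the glands in their response, 4.59%. Of these, 905 had the higher difference in the salivary gland and 72 had the lower, and the IgA transcripts were among the 72. In the lacrimal gland itself 1095 probe sets were called lower and 51 higher.

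**Figure D3:**
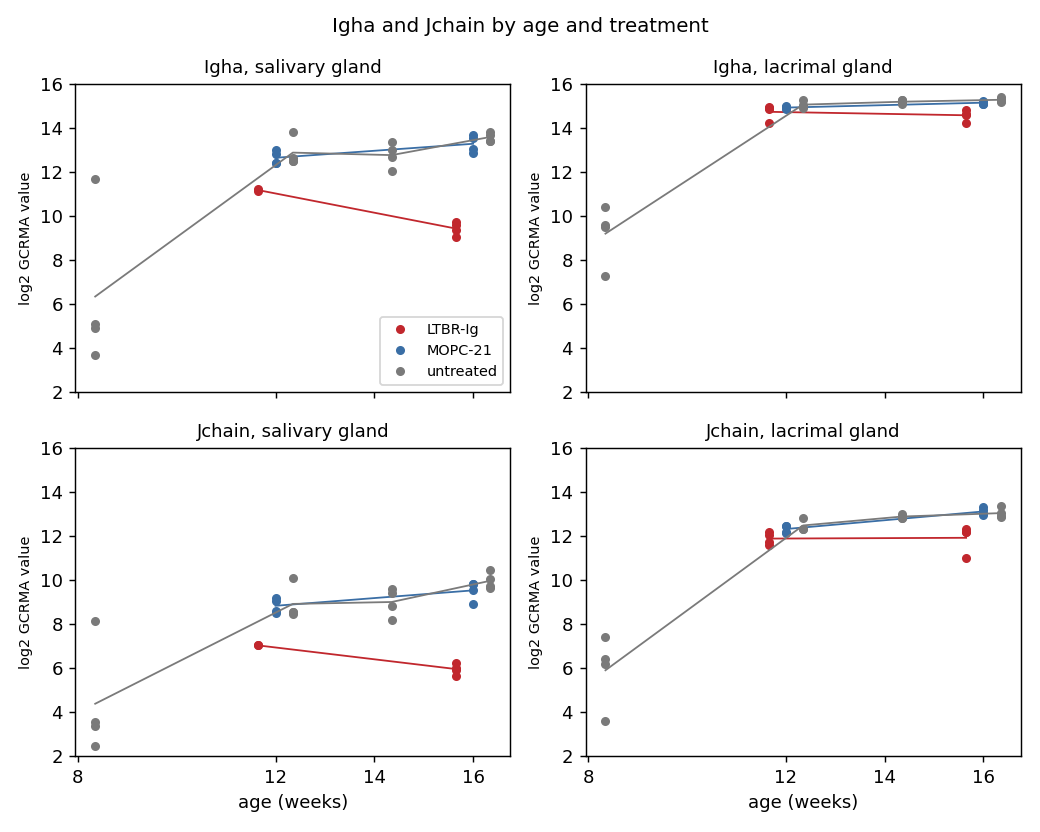
Log2 GCRMA values of Igha (top) and Jchain (bottom) against age in weeks, in salivary (left) and lacrimal (right) glands. Points are single arrays, shifted slightly sideways by group, and lines join group means of LTBR-Ig (red), MOPC-21 (blue) and untreated (gray) mice. In salivary glands the LTBR-Ig line falls away from both control lines by week 16, to 9.42 for Igha, and in lacrimal glands it stays close to them, at 14.56.

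Slpi and Plac8 were also called lower. Slpi, a secreted inhibitor of leukocyte serine proteases made by mucosal epithelia and myeloid cells (chromosome 2), read 3.42, 3.53, 3.41 and 3.42 on LTBR-Ig arrays and 4.72 to 5.72 on control arrays, with a median of 5.38. LTBR-Ig values were all at one level under the floor, and all controls were above it. Slpi was at least 2.48-fold lower against the floor, with a measured log2 difference of -1.87 (SE 0.32, limma adjusted p = 0.00478). In untreated salivary glands it averaged 3.60 at week 8, 5.06 at week 12, 4.26 at week 14 and 5.44 at week 16. Plac8, a cysteine-rich protein of myeloid and lymphoid cells, read 3.41 to 3.51 on LTBR-Ig arrays and 3.52 to 5.25 on control arrays. Its lowest control array lay just above the LTBR-Ig range, and the bound against the floor was 1.499-fold (limma adjusted p = 0.0316). With 1 array left out at a time, Plac8 passed only without MOPC-21 replicate 1 or untreated replicates 2 or 3 (adjusted p up to 0.153 without the other 9), and Mzb1 only without MOPC-21 replicates 1 or 3 or untreated replicate 4 (up to 0.147).

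Several leukocyte transcripts were lower by less than 2-fold. At any fold, 17 of 9662 genes passed the adjusted p as lower, 0.176%, and 5 as higher, 0.0517%. Cd53, a tetraspanin of leukocytes, read 4.77, 4.99, 5.15 and 4.82 on LTBR-Ig arrays and 5.65 to 6.14 on control arrays, a log2 difference of -0.97 (limma adjusted p = 0.0141). Ptprc, which encodes CD45, stood at 5.80 to 6.18 and 6.35 to 7.27, also without overlap, but its log2 difference of -0.64 did not pass (adjusted p = 0.273). Lyz1 and Lyz2, the lysozymes of Paneth-type and myeloid cells, had log2 differences of -0.67 (adjusted p = 0.0453) and -0.68 (adjusted p = 0.0469), and Pf4, a platelet and macrophage chemokine, had -0.43 (adjusted p = 0.0469). Serping1, the C1 inhibitor of the complement cascade, read 7.15 to 7.30 on LTBR-Ig arrays and 7.45 to 8.07 on control arrays, a log2 difference of -0.67 (adjusted p = 0.0469). These 4 calls were lost in 14 of 23 alternatives for Lyz1 (adjusted p up to 0.168), 16 for Lyz2 (0.187), 17 for Pf4 (0.228) and 15 for Serping1 (0.201), and Cd53 lost its call in 3 (0.0903). Of the 13 dendritic cell and macrophage genes tested, of 20 matched, all 13 were negative, 5 at an unadjusted p under 0.05, and the median was -0.29. All 13 were above the floor on at least 2 LTBR-Ig arrays. Over all genes, 3.53% were lower and 4.07% higher at that p. C1qb and C1qc, subunits of complement C1q made by macrophages, were below all controls on all LTBR-Ig arrays (log2 differences -0.53 and -0.71), as were 1.48% of all genes, but did not pass (adjusted p = 0.181 and 0.0711).

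The genes of MHC class II presentation, by which dendritic cells, macrophages and B cells show peptides to helper T cells, had negative differences throughout, none past the adjusted threshold. H2-Ab1, the beta chain of I-A, read 6.28, 6.79, 6.78 and 6.71 on LTBR-Ig arrays, and 7.38 to 8.12 with a median of 7.74 on control arrays. Its groups were well apart, and the log2 difference was -1.10 (95% confidence interval -1.74 to -0.46). Of 9 matched members of this list, 6 were tested, and all 6 had a negative difference at an unadjusted p under 0.05, with a median of -0.73. In 5 of the 6 every LTBR-Ig array lay below every control array, as in 1.48% of all genes. H2-DMa passed the filter through the controls, and without it 5 of 5 were negative at an unadjusted p under 0.05, 4 did not overlap and the median was -0.76. None passed the adjusted p in the fit over all salivary arrays (H2-Ab1 0.21, Cd74 0.213), and 5 passed with only the 12 arrays of week 16 in the fit (H2-Ab1 0.000109). The mean of the 6 genes was 6.87, 7.13, 7.14 and 6.99 on LTBR-Ig arrays, 7.57 to 8.17 on MOPC-21 arrays and 7.55 to 7.76 on untreated arrays. At week 12 the list's median was -0.05, and in the lacrimal gland of week 16 it was -1.11. There 4 of the 6 were called lower, against 557 of all 10537 genes tested in that comparison.

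Interferon-stimulated genes had mostly negative differences at week 16, and for 1 of them the effects of weeks 12 and 16 differed. Rtp4, an interferon-induced transporter protein that restricts some viruses (chromosome 16), read 5.57, 5.52, 5.79 and 5.92 on LTBR-Ig arrays at week 16 and 6.28 to 7.40 on control arrays, with a median of 6.84. The groups did not overlap, though MOPC-21 replicate 1, at 6.28, was nearest to the LTBR-Ig arrays. The log2 difference was -1.16 (SE 0.25, limma adjusted p = 0.0466). At week 12 Rtp4 stood at 7.87 ± 0.15 in LTBR-Ig glands (n = 2), 6.57 in MOPC-21 glands and 6.34 in untreated glands, a log2 difference of 1.42 (adjusted p = 0.103). The effect at week 16 minus that at week 12 was -2.58 (limma adjusted p = 0.0177). Rtp4 was the only probe set of 19661, 0.00509%, in which the weeks differed by a fold of 2 at that threshold, and the week 12 side rests on 2 LTBR-Ig arrays. The count was 0 with array weights, with the parotid covariate or without LTBR-Ig replicate 1, and 5 with only the arrays compared in the fit or without MOPC-21 replicate 1.

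Oasl2, a member of the oligoadenylate synthetase-like antiviral family (chromosome 5), read 4.52, 4.87, 4.25 and 4.52 on LTBR-Ig arrays of week 16 and 5.25 to 6.25 on control arrays, with a median of 5.76. Its log2 difference was -1.23 (SE 0.27, limma adjusted p = 0.0469). With 1 array left out at a time, Oasl2 passed only without MOPC-21 replicate 1 (adjusted p up to 0.264 without the other 11), and Rtp4 only without MOPC-21 replicate 1 or untreated replicate 2 (up to 0.197). Usp18, which trims the ubiquitin-like ISG15 from proteins, had a log2 difference of -1.14 (adjusted p = 0.213). Bst2, the tetherin that holds budding viruses, had -0.73 (adjusted p = 0.064), and Irf9 and Irf7, transcription factors of the type I interferon response, had -0.67 (0.131) and -0.76 (0.301). In a fit of only the 12 arrays of week 16, Bst2 (limma adjusted p = 0.00182) and Irf9 (0.0168) passed. Usp18 (0.0883) and Irf7 (0.0754) did not. Of 21 matched members of the interferon list, 18 were tested and 17 were negative, 13 of them at an unadjusted p under 0.05, and the median was -0.58. Only Oasl2 was called, as were 0.103% of all genes, and in 4 of the 18 the groups did not overlap, against 1.48% of all genes. Of the 13 above the floor on at least 2 LTBR-Ig arrays, which excludes those that passed through the controls alone, 12 were negative, 9 at an unadjusted p under 0.05, 4 did not overlap and the median was -0.53. At week 12, 12 of the 18 were positive, 7 at an unadjusted p under 0.05, with a median of 0.29.

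The mean of the 18 interferon genes was 4.99, 4.93, 4.77 and 4.98 on LTBR-Ig arrays of week 16. It was 5.05, 5.74, 5.65 and 5.88 on MOPC-21 arrays and 5.50, 5.23, 5.26 and 5.59 on untreated arrays. MOPC-21 replicate 1 was thus close to the LTBR-Ig arrays. Without it the median of the list was -0.66, with 13 genes still lower at an unadjusted p under 0.05. LTBR-Ig glands of week 12 held 5.56 and 5.59, and untreated glands of week 14 held 5.01 to 5.35.

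**Figure D4:**
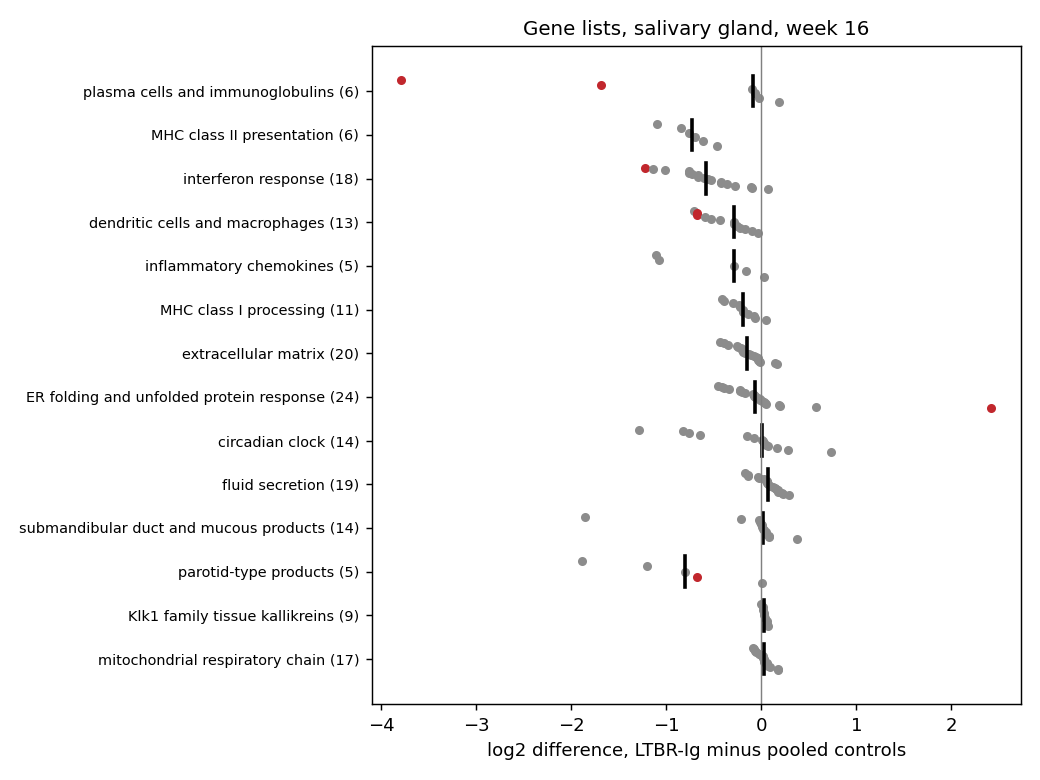
Log2 differences between LTBR-Ig and pooled controls for the tested members of 14 gene lists, with the number tested in parentheses. Each point is a gene, red where the limma adjusted p was under 0.05, and the black bar is the median of the list. MHC class II and interferon genes lie to the left of 0, with medians of -0.73 and -0.58, and the kallikreins lie on 0, with a median of 0.03.

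Several genes tied directly to the lymphotoxin pathway were below the floor, and none measured passed the adjusted p over all salivary arrays. Of the lymphotoxin and non-canonical NF-kB genes, 7 of 18 matched were tested, with differences of -0.20 to 0.15 and a median of 0.06. Of the LTBR-dependent lymphoid stroma genes, 6 of 11 matched were tested, with differences of -0.26 to 0.06 and a median of -0.06. Ltbr itself averaged 6.79 in LTBR-Ig mice and 6.68 in controls, a log2 difference of 0.10 (95% confidence interval -0.23 to 0.43). Glycam1, the sulfated addressin scaffold of high endothelial venules, was at 2.96 in LTBR-Ig mice and 2.99 in controls, below the floor. Madcam1, Cr2, Ms4a1, Pla2g2d, Lta and Ltb were below it as well and were not tested. Cxcl13, the chemokine that draws B cells into follicles, averaged 2.88 in LTBR-Ig mice and 3.73 in controls, where 1 array reached 4.74, a log2 difference of -0.85 (adjusted p = 0.342). Vcam1, an endothelial adhesion molecule, had a log2 difference of -0.73 (adjusted p = 0.236), with LTBR-Ig arrays at 3.32 to 4.03 and controls at 4.07 to 5.01.

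No gene in the lists of secretory products was called at 2-fold, and Slpi, a secreted protein called lower, was outside these lists. The most abundant lie near the highest array value of 16.38, where differences can be compressed. Mucl1, a small mucin-like secreted protein, averaged 15.77 ± 0.03 in LTBR-Ig mice and 15.77 ± 0.11 in controls, a difference of 0.00 (95% confidence interval -0.11 to 0.10). Klk1, a tissue kallikrein, averaged 15.58 and 15.51, and the 9 kallikreins tested had differences between -0.01 and 0.07 with a median of 0.03. Aqp5, the water channel of acinar cells, differed by 0.05 (95% confidence interval -0.20 to 0.30), and Smgc, a sublingual mucous product that shares a locus with the mucin Muc19, differed by 0.05 (95% confidence interval -0.12 to 0.22). Egf differed by -0.02 and Crisp3, a cysteine-rich secretory protein, by 0.04. The 14 submandibular duct and mucous genes tested ran between -1.86 and 0.37 with a median of 0.01, and none passed the adjusted p. The lowest was Smr3a, a submaxillary gland androgen-regulated protein (adjusted p = 0.99), which stood at 14.19 in untreated replicate 4 and at no more than 4.60 on the other 11 arrays. Ascl3, a transcription factor of duct cells, had the highest difference (adjusted p = 0.383), and Cst3, the protease inhibitor cystatin C, differed by -0.21 (adjusted p = 0.411). Lyz1, counted among parotid-type products, was the single member of the secretory lists past the adjusted p. None of the 19 fluid secretion genes tested passed the adjusted p, and their median was 0.07. Bpifa2, a parotid protein, differed by -1.89 and Amy1 by -0.81, but neither passed (adjusted p = 0.973 and 1), and both followed untreated replicate 4.

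Chac1, which degrades glutathione and is induced by ATF4 in the unfolded protein and amino acid stress responses (chromosome 2), was the single transcript called higher. It read 8.12, 7.98, 8.31 and 8.18 on LTBR-Ig arrays and 5.09 to 6.92 on control arrays, with a median of 5.59. The LTBR-Ig arrays were tightly grouped above every control. The means were 8.15 ± 0.14 (SD, n = 4) and 5.73 ± 0.61 (SD, n = 8), and Chac1 was 5.34-fold higher, a log2 difference of 2.42 (SE 0.50, 95% confidence interval 1.38 to 3.45, limma adjusted p = 0.0331). It did not pass against MOPC-21 alone (2.12, adjusted p = 0.285) or untreated mice alone (2.71, adjusted p = 0.0726). With 1 array left out at a time it passed only without MOPC-21 replicates 1 or 3 (adjusted p up to 0.16 without the other 10). Untreated salivary glands of week 14 held 8.98 ± 0.46 (SD, n = 4), above the LTBR-Ig level of week 16, so the gland reached that level without treatment.

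Nupr1, a small stress-induced chromatin protein that is also an ATF4 target (chromosome 7), read 13.63, 13.36, 13.74 and 13.40 on LTBR-Ig arrays and 12.13 to 13.06 on control arrays. The groups did not overlap, and the log2 difference was 0.98 (SE 0.22, limma adjusted p = 0.0574). A second Nupr1 probe set gave 0.86 and passed (adjusted p = 0.0469). Nupr1 also stood high in untreated glands of week 14, at 13.58 ± 0.51. Trib3 and Asns, other genes of the ATF4 response, had log2 differences of 0.57 (adjusted p = 0.425) and 0.20 (adjusted p = 0.523), and Atf4 itself had -0.08. Of the 24 genes tested for endoplasmic reticulum folding and the unfolded protein response, only Chac1 passed, and the median was -0.06.

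Because Chac1 and Nupr1 stood higher together, the 250 bases before their start sites (RefSeq, GRCm38.p6) are shown with TTGCATCA in capitals, the letters of the composite C/EBP and ATF element that ATF4 can bind. They lie at chr2:119350992-119351241 on the plus strand and chr7:126625471-126625720 on the minus strand. The motif was searched on both strands, and 260 of 32851 mouse promoters of this length hold it, 0.791%. In Chac1 it lies 193 to 186 bases before the start and in Nupr1 110 to 103 bases before it, on the strand of the gene in both. A match is a description of the letters and says nothing about binding in these glands.
Chac1: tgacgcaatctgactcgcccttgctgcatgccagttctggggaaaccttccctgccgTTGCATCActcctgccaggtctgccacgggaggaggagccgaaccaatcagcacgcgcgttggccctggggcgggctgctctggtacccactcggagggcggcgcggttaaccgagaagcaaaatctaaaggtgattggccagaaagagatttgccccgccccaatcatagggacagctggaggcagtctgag
Nupr1: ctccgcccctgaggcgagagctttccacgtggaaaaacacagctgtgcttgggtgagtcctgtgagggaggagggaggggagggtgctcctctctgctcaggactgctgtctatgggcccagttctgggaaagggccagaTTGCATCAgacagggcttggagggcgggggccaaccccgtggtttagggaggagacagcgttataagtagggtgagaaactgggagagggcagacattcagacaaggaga

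A few more transcripts were higher by less than 2-fold. Fam214a, a gene of little-known function, read 8.21, 7.81, 8.19 and 8.15 on LTBR-Ig arrays and 7.0 to 7.52 on control arrays, a log2 difference of 0.80 (SE 0.13, limma adjusted p = 0.00184). It passed against each control group alone. Tcp11l2 differed by 0.75 (adjusted p = 0.0316) and Sema3b, a secreted semaphorin, by 0.60 (adjusted p = 0.015), although the highest control array of Sema3b was at 3.50, below the floor. Atf7ip, a cofactor of histone methylation, differed by 0.47 (adjusted p = 0.0424). Tcp11l2 did not pass in 10 of 23 alternatives (adjusted p up to 0.16) and Atf7ip in 15 (0.273), while Fam214a passed in each one. Sema3b passed in the 20 in which it was tested. Those without LTBR-Ig replicate 1 or 4, the only arrays on which it was above the floor, could not test it. The groups did not overlap in Chac1 and these 4 genes, as in 1.61% of all genes with every LTBR-Ig array above every control. In the lacrimal gland Tcp11l2 went the other way, with a log2 difference of -0.50 (adjusted p = 0.0106), and its response differed between glands by 1.25 (adjusted p = 0.0004).

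**Figure D5:**
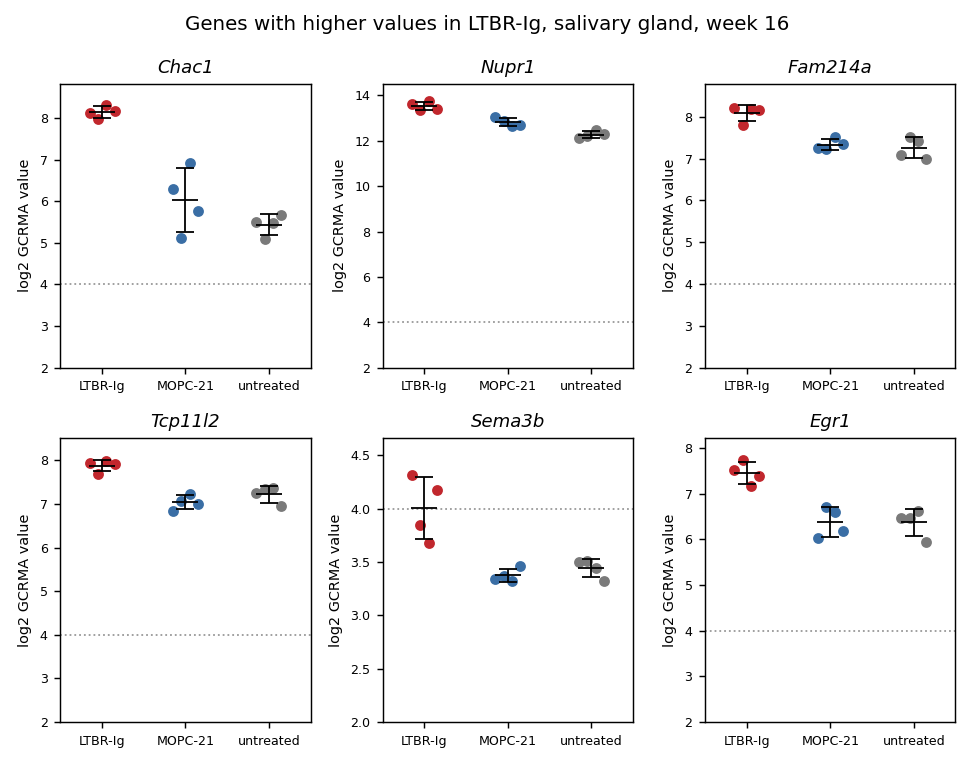
Log2 GCRMA values of Chac1, Nupr1, Fam214a, Tcp11l2, Sema3b and Egr1 on each salivary array of week 16, in LTBR-Ig (red), MOPC-21 (blue) and untreated (gray) mice, with mean and SD (n = 4 each) and a dotted line at the floor of 4. LTBR-Ig arrays lie above all controls in each panel, by the widest margin for Chac1, at 7.98 to 8.31 against 5.09 to 6.92.

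The control groups pooled here were also compared with each other. Between MOPC-21 and untreated glands limma called 0 of 19118 probe sets. At an unadjusted p under 0.05, 462 differed, 8 of them by a fold of 2. Against MOPC-21 alone 7 probe sets were called, all lower, and against untreated mice alone 13 were, 11 lower and 2 higher. These comparisons share the LTBR-Ig arrays. Igha had log2 differences of -3.85 against MOPC-21 (adjusted p = 0.13) and -4.16 against untreated mice (adjusted p = 0.0738), so each control group gave the same size with less precision.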

How the data were processed

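Gene expression in salivary and lacrimal glands was measured on 61 arrays, with 45101 probe sets each. The values are the log2 intensities deposited by the authors, who corrected probe intensities for background and normalized the whole set by GCRMA (version not given in the sources used here). Joint normalization can pull arrays together, and GCRMA compresses values near background. No further normalization was applied.

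Probe sets were tested with R 4.3.3 and limma 3.58.1 over the 30 salivary arrays, with pooled means for the control groups of week 16, an intensity trend and Benjamini-Hochberg adjustment. Differences between glands were fitted over all 61 arrays. Probe sets had to lie above 4 on at least 2 of the arrays compared, and were called at a fold of 2 and an adjusted p under 0.05, in place of the posterior probability in the methods of the study, which is an alternative. For genes called lower with all LTBR-Ig arrays under 4, a fold is given as a bound against that floor. Other genes had a group wholly under 4 without such a bound, Sema3b, Pou2af1, Cxcl13 and Usp18 among them. Their log2 differences are given as read and are not measured sizes. Intervals are 95% confidence intervals from the fit. The platform annotation gave a single gene symbol to 34958 probe sets, several to 932 and none to 9211. A gene stands for whichever of its single-symbol probe sets averaged highest over the 61 arrays. Chromosomes and promoters are from RefSeq tables (GRCm38.p6), which held a promoter for 17 of 26 genes looked up.

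Genes were named by a rule that took a set of lymphotoxin pathway and gland genes, the 12 genes higher and 12 lower by at least 2-fold with the smallest p, and members of 34 gene lists, up to 4 called or else those with the smallest p and the largest difference. 5430416N02Rik, Asns, Atf4, Atf7ip, Bst2, C1qb, Ccl28, Cd53, Cry1, Cst3, Fam214a, Fos, H2-DMa, Ifi27l2a, Ighm, Irf7, Irf9, Lyz2, Nr1d1, Nupr1, Per1, Sdc1, Sema3b, Serping1, Tcp11l2, Trib3, Usp18 and Xbp1 fell outside that rule and were chosen after their values were seen. The members, lists and tests were chosen with earlier results of these data known. Symbols without a single-symbol probe set were not analysed here, and Muc19 is covered under Smgc. The scripts were tested on simulated data. Alternatives changed the arrays in the fit, the trend, array weights, the filter, normalization, the call rule and a parotid covariate, and left out each array in turn. Figures were drawn with Python 3.11.15 and matplotlib 3.10.9. The number of arrays limits the precision.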

Additional observations from a re-analysis of the deposited data

Results flagged for a closer look

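In 57 genes, 171 groups of 4 arrays were looked at, all drawn from the same 12 arrays and so not independent. In 15 of them 1 array stood apart from the other 3, where chance gives about 1 in 20 independent groups. In interferon genes it was mostly MOPC-21 replicate 1. That array read 6.28 for Rtp4 (others 7.31 to 7.40), 6.15 for Lgals3bp (7.31 to 7.40), 3.52 for Irf7 (4.58 to 4.76), 6.49 for Irf9 (6.91 to 6.95) and 10.60 for Ifi27l2a (12.66 to 12.92), and it read 12.01 for Asns (11.73 to 11.75). MOPC-21 replicate 4 read 6.09 for Bst2 (5.59 to 5.66), and MOPC-21 replicate 2 read 4.46 for 5430416N02Rik (3.86 to 3.88). LTBR-Ig replicate 2 read 3.75 for Pou2af1 (3.05 to 3.17), 3.53 for Slpi (3.41 to 3.42), 2.77 for Cxcl13 (2.90 to 2.92) and 7.81 for Fam214a (8.15 to 8.21), the first 3 near or under the floor. LTBR-Ig replicate 1 read 6.28 for H2-Ab1 (6.71 to 6.79). Untreated replicate 1 read 8.52 for C1qb (7.99 to 8.01), and untreated replicate 4 read 6.001 for Pf4 (6.14 to 6.15).

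Effects between weeks and glands were looked at in these genes together with those taken by the naming rule. The LTBR-Ig effect differed between the weeks in 1 gene of this larger set, Rtp4, by -2.58 for week 16 minus week 12 (limma adjusted p = 0.0177).

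It differed between the glands at week 16 in 19 genes of the same larger set, and in 4.59% of all probe sets tested. Each is given here as the salivary minus the lacrimal log2 difference with its limma adjusted p. The immunoglobulin genes Igha (-3.37, limma adjusted p = 0.00799), Igkv8-30 (-3.06, limma adjusted p = 0.0128), Iglv1 (-2.45, limma adjusted p = 0.0129) and Jchain (-2.63, limma adjusted p = 0.0121) had the more negative effect in the salivary gland. Lacrimal Igha lay near the highest array value, where differences can be compressed. Iglv1 lay below the floor on all LTBR-Ig salivary arrays, as did Usp18 and Pou2af1 among the genes that follow, so the sizes for these 3 are not measured levels. The effect was also more negative for Mucl1 (-6.32, limma adjusted p = 0.00136), Crisp3 (-5.81, limma adjusted p = 0.00163), Egf (-2.43, limma adjusted p = 0.00735) and Smgc (-2.47, limma adjusted p = 0.0424), for which the salivary effects were near 0, and for Usp18 (-1.68, limma adjusted p = 0.0344). The salivary effect was the less negative for Glycam1 (4.31, limma adjusted p = 5.65e-11), Pla2g2d (3.20, limma adjusted p = 4.39e-06), Cr2 (2.67, limma adjusted p = 0.00191), Ltb (1.94, limma adjusted p = 0.0135) and Ms4a1 (1.93, limma adjusted p = 0.0213), all below the floor in salivary glands, and for Lyz2 (1.12, limma adjusted p = 0.0432), Pou2af1 (1.11, limma adjusted p = 0.0445) and Lyz1 (1.01, limma adjusted p = 0.0487). Egr1 (1.63, limma adjusted p = 0.0214) and Tcp11l2 (1.25, limma adjusted p = 0.0004) were higher in the salivary gland of LTBR-Ig mice and had negative differences in the lacrimal gland, where that of Egr1 did not pass.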

How the results depend on the processing

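The 22 probe sets called against pooled controls became 13 by a posterior probability below 0.05 in place of the adjusted p, 13 with no filter on dim probe sets, 41 with only the arrays compared in the fit and 46 with array weights. At any fold, 41 became 23 with no filter, 23 with the parotid covariate, 468 with only the arrays compared and 546 with array weights. The 7 called against MOPC-21 became 0 with no filter or above a log2 value of 6, 2 after quantile normalization, 3 with arrays centred or by the posterior, 44 with only the arrays compared, 51 with array weights and 22 without the week 8 arrays, an alternative chosen after seeing the data. The 13 called against untreated mice became 7 with no filter, 8 above 6 or by the posterior, 36 with only the arrays compared, 40 with array weights and 23 without the week 8 arrays. The 1 probe set that differed between weeks became 0 with array weights or the parotid covariate, 2 without the trend, 5 with only the arrays compared, 6 without the week 8 arrays and 7 with no filter. The 977 that differed between glands became 633 above 6, 111 by the posterior and 618 with the parotid covariate. All 22 main calls were shared by the fits with only the arrays compared, array weights, no week 8 arrays, quantile normalization and centring.

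With each array left out in turn, the counts ran from 10 to 28 against pooled controls, 12 to 49 at any fold, 0 to 17 against MOPC-21, 6 to 13 against untreated mice, 0 to 5 between weeks and 764 to 961 between glands, and stayed at 0 between the control groups. The pooled count was 13, 12, 11 and 10 without LTBR-Ig replicates 1 to 4. Immunoglobulin probe sets called lower numbered 6 to 10. Ighm had log2 differences of -0.44 to 0.39 and turned positive without LTBR-Ig replicate 3 (0.39), MOPC-21 replicate 4 (0.20) or untreated replicate 2 (0.06).

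Deviations of same-numbered arrays correlated at r = -0.11 to 0.16 over 12 pairs, and those of arrays with different numbers at -0.14 to 0.09 over 36 pairs. The labels do not say whether a shared number marks anything else in common. With the replicate block, fitted to the 12 arrays, 41 probe sets were called against pooled controls, 466 at any fold, 49 against MOPC-21 and 36 against untreated mice.

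Of the 22 genes past the adjusted p, 7 kept their side in every alternative run: Jchain, Iglv1, Igkv9-120, Slpi, Fam214a, Sema3b and 5430416N02Rik. Iglv1, Igkv9-120, Slpi and 5430416N02Rik lay below the floor on every LTBR-Ig array, and Sema3b on every control array. They passed the filter through the other group alone. Sema3b was tested in 20 of the 23 alternatives. It was above the floor only on LTBR-Ig replicates 1 and 4, so leaving out either ended its test. Transcripts near the floor have little room to fall, so the array signal limits what could be measured for B cell and endothelial genes. The causes of these shifts were not tested.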

Other observations

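None of the 14 clock genes tested passed the adjusted threshold in the fit over all salivary arrays. In 4 of them, described here after their values were seen, the LTBR-Ig arrays did not overlap the controls, 3 lying lower, as in 1.48% of all genes, and 1 higher, as in 1.61%. Nfil3, a repressor of clock output, read 3.93, 4.72, 3.97 and 3.35 on LTBR-Ig arrays and 4.83 to 5.74 on control arrays, a log2 difference of -1.29 (limma adjusted p = 0.201). Per1 and Cry1, repressors within the clock, had -0.82 (adjusted p = 0.523) and -0.76 (adjusted p = 0.477), and Nr1d1, the nuclear receptor REV-ERB alpha, had 0.73 (adjusted p = 0.317). The median difference of the 14 was 0.01, as over all genes. The hour at which glands were taken is not given in the sources used here.

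Egr1, an immediate early transcription factor, read 7.53, 7.74, 7.16 and 7.40 on LTBR-Ig arrays and 5.95 to 6.72 on control arrays, a log2 difference of 1.08 (limma adjusted p = 0.25). Fos, induced by many of the same stimuli, had a difference of -0.02 (adjusted p = 1). Pdk4, a brake on glucose oxidation, had 0.90 (adjusted p = 0.143). Among chemokines, Ccl5 was at 3.29 to 4.26 on LTBR-Ig arrays and 4.72 to 5.40 on control arrays, a log2 difference of -1.11 (adjusted p = 0.0711), and Ccl28, which draws IgA plasma cells to mucosal glands, had 0.03 (adjusted p = 1).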
